A study of Homo sapiens with 18 samples.

Results

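The 9 red cell blood group genes described here were followed across K562 cells in which the HS2 globin enhancer was targeted with CRISPR repressors. They were taken as the 9 named genes RHD, RHCE, RHAG, XK, KEL, GYPB, GYPE, GYPC and ERMAP, out of 24407 genes in the deposited RNA-seq tables, by mapping each RefSeq transcript accession to its gene symbol and summing the counts per gene. K562 is an established human erythroleukaemia cell line that transcribes embryonic and fetal globin genes, and HS2 is an element of the beta-globin locus control region that acts on those genes. The 18 libraries form 6 groups of 3. The untransduced group received no lentivirus and carried no transgene or gRNA. Each of the other 5 groups, 15 libraries in all, was transduced with lentivirus in polybrene and selected with puromycin. In the guideless dCas9-KRAB group the virus expressed dCas9, a Cas9 that binds DNA without cutting it, joined to the KRAB repressor domain, with no gRNA. The dCas9 CR4 and dCas9 CR10 groups expressed dCas9 without KRAB together with the HS2 gRNA CR4 or CR10, and the dCas9-KRAB CR4 and dCas9-KRAB CR10 groups expressed the fusion with the same gRNAs. The labels give neither the age of the cultures nor a clonal origin of the transduced cells, and do not say whether the untransduced cells met polybrene or puromycin. The design text calls the transductions triplicate, but the labels do not tie a library to a separate culture, so p-values measure the spread between these libraries only.

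Blood group antigens are inherited differences in proteins and sugars of the red cell surface, and many of the proteins that carry them are transporters, enzymes or anchors of the membrane. RhD and RhCE, the products of the neighbouring copies RHD and RHCE, reach the surface in a complex with the Rh-associated glycoprotein encoded by RHAG. XK is a membrane protein that is linked covalently to Kell, the endopeptidase encoded by KEL. Glycophorins B, E and C are sialic acid-rich surface proteins, of which those of GYPB and GYPE belong to 1 family of near-identical genes, while GYPC, the carrier of Gerbich antigens, is unrelated and binds the membrane skeleton. ERMAP carries the Scianna antigens. Many such genes are switched on during erythroid differentiation by GATA1, which binds a short GATA motif.

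That motif is shown here because it is a stretch of sequence that most of the genes share although it played no part in choosing them. The RefSeq promoter table (assembly GRCh38.p14) had entries for 8 of the 9 genes, all except XK, with 12 annotated start windows. The motif AGATAA was searched on both strands in the 250 bases before each start. The form AGATAG with another last base was taken as a match as well. The same holds for TGATAA, in which the first base differs, and for its sister form TGATAG. Each window of 30 bases below is given 5′ to 3′ on the strand of its gene, with the match in capitals.

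RHD, chr1:25272421-25272450, plus strand: ccttgcagcctgAGATAAggcctttggcgg

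RHCE, chr1:25420884-25420913, minus strand: ccttgcagcctgAGATAAggcctttggcgg

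RHAG, chr6:49636853-49636882, minus strand: agtcctttgttcTTATCAacatctcacagc

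KEL, chr7:142962408-142962437, minus strand: cctgagaagctgAGATAAagggggaggaga

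KEL, chr7:142962372-142962401, minus strand: ggtgccccccacTGATAAgcaggctccacc

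GYPB, chr4:144019405-144019434, minus strand: tgcctcccctgcCTATCAgctgatgatggc

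GYPB, chr4:144019367-144019396, minus strand: ggtgggcctggaAGATAAcagctagtaggc

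GYPE, chr4:143905625-143905654, minus strand: tgcctcccctgcCTATCAgctgatgatggc

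GYPE, chr4:143905587-143905616, minus strand: ggtgggcctggaAGATAAcagctagcaggc

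GYPC, chr2:126656082-126656111, plus strand: aatgaagtctgcCTATCTccgggccagagc

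ERMAP, chr1:42825334-42825363, plus strand: tcagaaagaatgTGATAGgatcaaaacgca

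ERMAP, chr1:42825477-42825506, plus strand: tgctctgttcttTTATCAggggcatacaga

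The RHD and RHCE windows are letter for letter the same, and the GYPB and GYPE windows nearly so. Over the 250 bases before the matched starts, RHD and RHCE shared 248 bases (99.2%), and GYPB and GYPE shared 239 of 244 aligned bases (98%), so each pair counts as 1 sequence rather than as 2 independent matches. A GATA match was found in 10 of 12 start windows, against 22.3% of the 35116 windows of the same length in the table. The 2 RHD windows overlap and hold the same match, and the 2 GYPB windows overlap and share 1 match, so the 12 windows are not independent. By gene, 8 of 8 had a match before at least 1 start, but the share of all genes with such a match was not counted. The farther ERMAP match lies 209 bases before its start and every other printed match within 77 bases of one. The letters CCNCNCCC, which cover CACCC-type sites and can overlap each other, were found in 9 of 12 start windows, from 6 of the 8 genes, against 53.4% of all windows. Within 120 bases of the start they were found in 5 of 12 windows, against 40.9%. A match is a stretch of letters and not a measured binding site.

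All 9 genes were detected in all 18 libraries and passed the filter on low counts. Library totals ran from 22805964 to 34032962 counts. The lowest count of a member in any library was 260, for RHCE, and the highest 23750, for RHAG. Every deposited count is even. Levels below are CPM, the share of a gene in the counts of its library after scaling of the libraries to each other. The erythroid label of the cells was met: all 10 erythroid identity genes of a fixed list (among them globins, ALAS2, TFRC and GATA1) were detected, with a summed level of 2720 to 5280 CPM, while 12 megakaryocyte markers summed to 54.2 to 95.5 CPM, 10 myeloid markers to 11.8 to 39.9 CPM and 7 lymphoid markers to 4.93 to 12.5 CPM. GP9, S100A9 and MS4A1, which mark platelets, neutrophils and B cells, were at 0 in every library, the 1 such gene of each list. The highest means of these lists over the libraries were 28.8 CPM for GP6, 19.3 for LYZ and 5.86 for CD3D. The GYPB and GYPE values, like those of RHD and RHCE, depend on how reads were split between near-identical copies, which is not stated in the sources used here, and are uncertain for that reason.

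To compare genes with each other, levels were divided by transcript length. RHAG stood highest in the 15 lentiviral libraries, at 252 ± 18.3 CPM per kb (SD, n = 15), and GYPC followed at 107 ± 11.4 CPM per kb. GYPE was at 49.1 ± 5.07 and GYPB at 35.5 ± 9.5 CPM per kb, with overlapping ranges. ERMAP (25.9 ± 7.04), KEL (20.1 ± 2.26) and XK (19.6 ± 1.78 CPM per kb) overlapped each other and formed the next step, of which ERMAP also reached the range of GYPB. RHCE at 9.52 ± 1.44 and RHD at 7.43 ± 1.01 CPM per kb were lowest and overlapped each other. The Rh-associated glycoprotein thus had the most transcript per length of the 9 genes and its Rh partners the least. For RHCE only 3 of 4 transcripts had a matched length. In untransduced cells RHAG was again highest, at 351 ± 18.4 CPM per kb (n = 3), and RHD lowest, at 11.9 ± 1.42, but XK, at 35 ± 10.5, had a higher mean than ERMAP, at 32.9 ± 2.76, and KEL, at 21.8 ± 2.19.

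**Figure D1:**
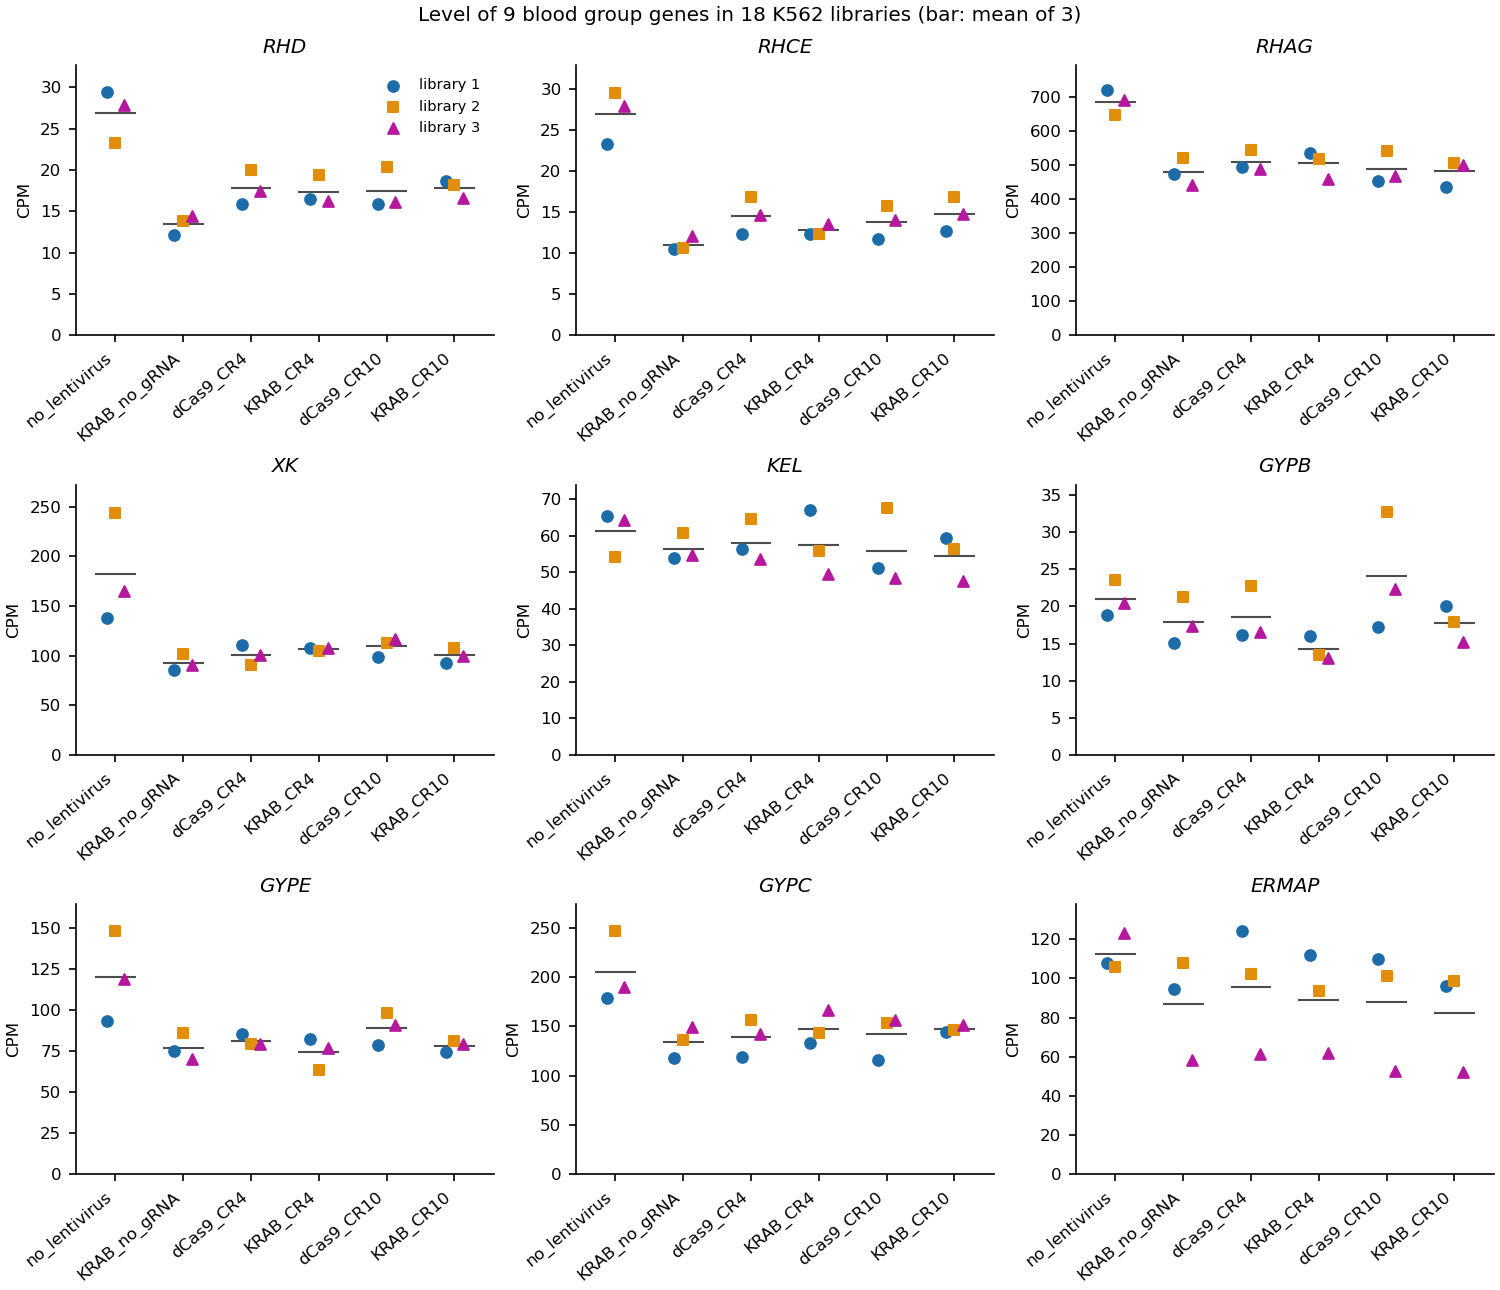
Level of each gene in CPM (vertical axis, linear from 0) in the 6 groups (horizontal axis), with 1 point per library, its shape and colour giving the library number, and a bar at the mean of 3. The untransduced libraries lie above the 15 lentiviral ones for RHD, RHCE, RHAG, XK and GYPC, and ERMAP is at 52.5 to 61.7 CPM in the 5 lentiviral libraries numbered 3.

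The first question was whether repressing HS2, the purpose of the design, moved any of the 9 genes. It moved none past the threshold: 0 of 9 were called between dCas9-KRAB CR4 and guideless dCas9-KRAB, where edgeR at an adjusted p under 0.05 called 0.0204% of the 14720 genes tested. The same count of 0 of 9, with the same background of 0.0204%, was found for dCas9-KRAB CR10 against the guideless group, for dCas9-KRAB CR4 against dCas9 CR4 and for dCas9-KRAB CR10 against dCas9 CR10. The few genes called at that level include the globin targets: HBE1, the embryonic globin gene, was lower by a log2 difference of -2.35 ± 0.1 (SE) with KRAB than without it, averaged over both gRNAs. In that average 0.0272% of genes were called and 0 of 9 members. For both dCas9 groups against the guideless group, for CR4 against CR10 with dCas9-KRAB, and for the difference of the KRAB effects between CR4 and CR10, the background was 0% and the count 0 of 9. DESeq2 also called 0 of 9 in each of these 9 comparisons.

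RHD was the member with the clearest pattern among the lentiviral groups. Its level was 12.2, 13.9 and 14.4 CPM in the guideless libraries, 15.9, 20 and 17.5 with dCas9 CR4, and 16.5, 19.4 and 16.3 with dCas9-KRAB CR4. It was 15.9, 20.4 and 16.1 CPM with dCas9 CR10 and 18.7, 18.2 and 16.6 with dCas9-KRAB CR10. The highest guideless library, at 14.4 CPM, was thus below the lowest of the other 12 lentiviral libraries, at 15.9, a separation shown by 0.115% of all genes tested and, of the 9, by RHD. The log2 difference from the guideless group was 0.36 ± 0.15 (SE) for dCas9-KRAB CR4, 0.4 ± 0.15 for dCas9-KRAB CR10, 0.4 ± 0.15 for dCas9 CR4 and 0.37 ± 0.15 for dCas9 CR10. These 4 comparisons share the guideless libraries. None passed the edgeR adjustment over all genes (adjusted p of 0.999 or 1).

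RHCE, the neighbouring copy, read 10.5, 10.6 and 12.1 CPM without a gRNA. It read 12.3, 16.8 and 14.7 with dCas9 CR4, 12.4, 12.4 and 13.6 with dCas9-KRAB CR4, 11.7, 15.7 and 14.1 with dCas9 CR10, and 12.7, 16.8 and 14.8 with dCas9-KRAB CR10. The guideless libraries were again the low end, but the lowest dCas9 CR10 library lay within their range. The log2 difference from the guideless group was 0.42 ± 0.16 for dCas9-KRAB CR10 (95% interval 0.07 to 0.77) and 0.21 ± 0.16 for dCas9-KRAB CR4 (-0.14 to 0.57). With the RHD and RHCE counts summed, so that the split of reads between them plays no part, the values were 0.41 ± 0.13 and 0.3 ± 0.13 (edgeR adjusted p 0.999 for both).

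GYPB had a lower mean level in both dCas9-KRAB gRNA groups than in the matched dCas9 groups, at an unadjusted p under 0.05 only when both gRNAs were averaged. Its level was 16.2, 22.8 and 16.6 CPM with dCas9 CR4 against 16, 13.5 and 13.1 with dCas9-KRAB CR4. With CR10 it was 17.2, 32.7 and 22.4 CPM for dCas9 and 20.1, 17.9 and 15.2 for dCas9-KRAB. For CR4 the lowest dCas9 library, at 16.2 CPM, was just above the highest dCas9-KRAB library, at 16. The share of all genes separated in this way was not counted, so no weight is given to it. The groups overlapped for CR10, where 1 dCas9 library, at 32.7 CPM, stood well above the others. The log2 difference was -0.39 ± 0.22 for CR4 (edgeR, unadjusted p 0.0902) and -0.44 ± 0.21 for CR10 (0.0533). Averaged over both gRNAs it was -0.41 ± 0.15 (edgeR, unadjusted p 0.014, adjusted p 1). GYPE showed no called change in that comparison.

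At an unadjusted p under 0.05, the edgeR fit over all genes singled out RHD for dCas9-KRAB CR4 against guideless (1 of 9, background 1.71%), and RHD and RHCE for dCas9-KRAB CR10 against guideless (2 of 9, background 1.49%). RHD and RHCE were also the 2 of 9 for dCas9 CR4 against guideless (background 0.448%), and RHD the 1 of 9 for dCas9 CR10 against guideless (background 1.19%). For KRAB against dCas9 averaged over the gRNAs GYPB was the 1 of 9 (background 1.26%). None of the 9 reached that level for dCas9-KRAB CR4 against dCas9 CR4 (background 0.999%), for dCas9-KRAB CR10 against dCas9 CR10 (0.496%), for CR4 against CR10 (0.897%) or for the difference of KRAB effects (0.346%). RHD and RHCE share most of their sequence and are not separate evidence.

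The other 6 members showed smaller or less regular differences. RHAG ranged from 437 to 546 CPM over the 15 lentiviral libraries, XK from 85.2 to 117, KEL from 47.5 to 67.5, GYPE from 63.7 to 98.2, GYPC from 116 to 167 and ERMAP from 52.5 to 124. Over all 9 members the log2 differences of dCas9-KRAB CR4 from the guideless group lay between -0.33 and 0.36, and no 95% interval reached below -0.8 or above 0.72. For dCas9-KRAB CR10 they lay between -0.08 and 0.42, with interval ends at -0.77 and 0.77. The fit behind these intervals has no term for the library number, so the spread between numbers, described below, is part of their width. With the number as a block no member was called in these 2 comparisons, where 0.0411% and 0.0479% of genes tested were called. Differences within the intervals were not detectable in the fit without a block at 3 libraries a group. The test does not show that the groups are alike.

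**Figure D2:**
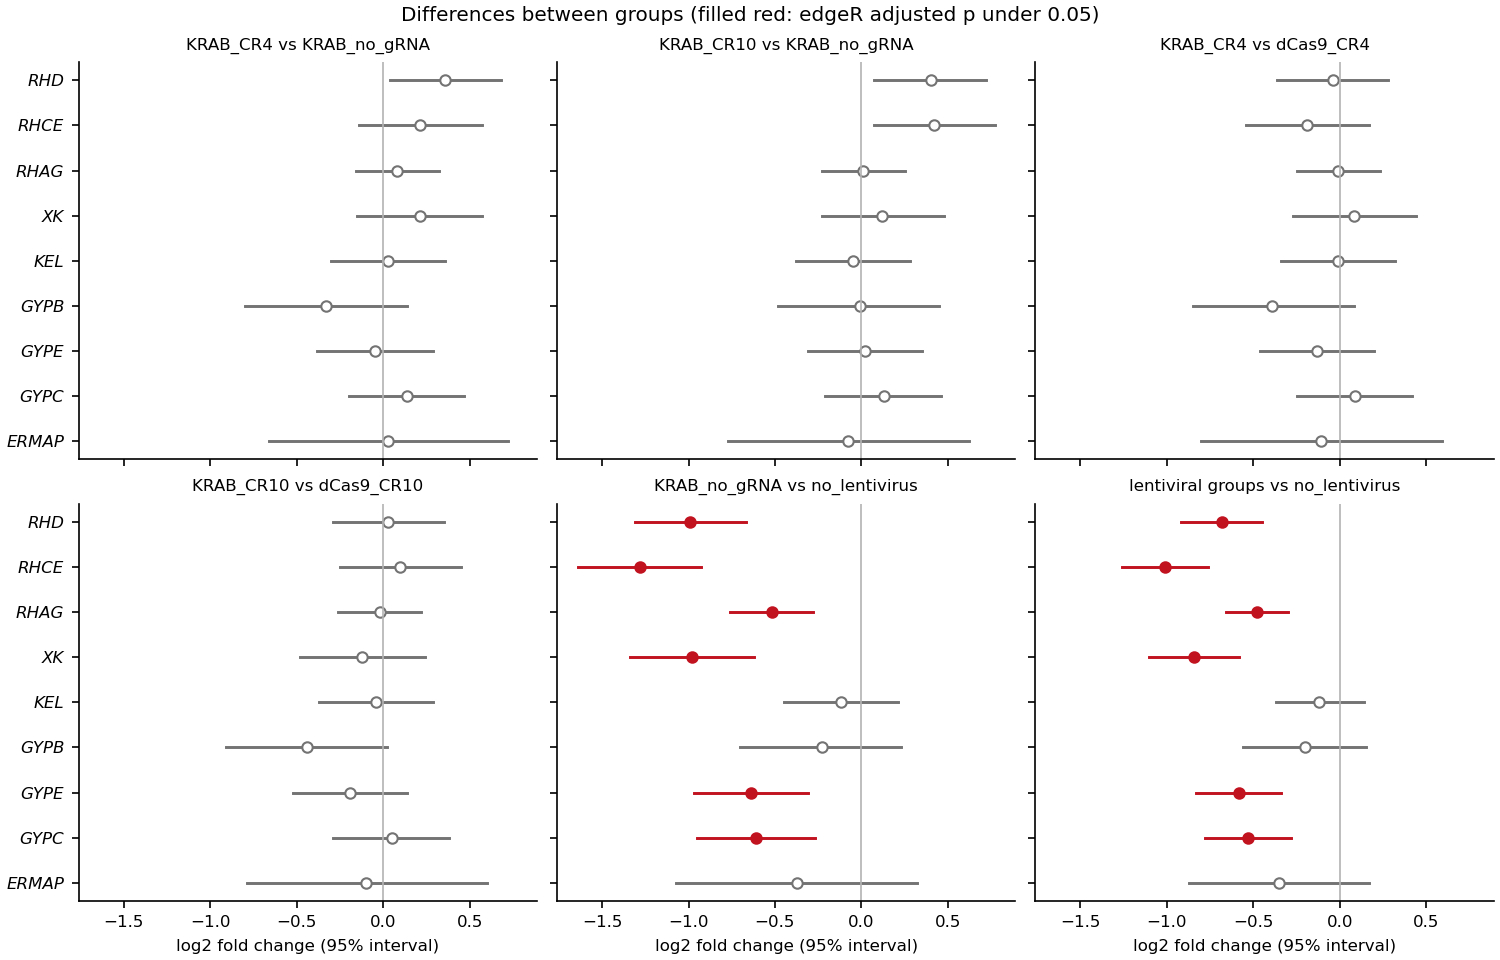
Log2 fold change (horizontal axis) of each gene with its 95% interval in 4 comparisons between lentiviral groups and 2 comparisons with untransduced cells, filled red where edgeR's adjusted p was under 0.05. No gene is filled in the lentiviral comparisons, and 6 genes are filled, all below 0, in each comparison with untransduced cells, which share the untransduced libraries.

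The larger differences lay between the lentiviral groups and the untransduced cells. The mean of the 5 lentiviral groups was lower than untransduced cells for 6 of 9 members and higher for none (edgeR, adjusted p under 0.05). In this comparison 18.7% of all genes tested were called and 11.2% were lower. The members' median log2 difference was -0.53 and that of all tested genes 0.01. The fit takes the spread of a gene from all 18 libraries together, of which 15 are lentiviral. The SD as a percentage of the mean was larger in the 3 untransduced libraries than in the 15 for XK (30.1% against 9.1%), GYPE (22.6% against 10.3%) and GYPC (17.8% against 10.7%). It was smaller for the other members. In bulk RNA a lower level cannot be divided into fewer cells that transcribe a gene and less RNA per cell. Lentivirus, polybrene, puromycin and the dCas9 proteins came together in all 15 lentiviral libraries and cannot be told apart here.

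The Rh genes were among the 6. RHCE read 23.3, 29.5 and 27.9 CPM in the untransduced libraries, against 10.5 to 16.8 CPM in the lentiviral ones, whose mean was 13.4 ± 2.03 CPM (SD, n = 15). Every untransduced library was above every lentiviral one. The log2 difference was -1.01 ± 0.11, a 2.02-fold higher level without virus (edgeR, adjusted p 0.000147). RHD read 29.4, 23.3 and 27.9 CPM untransduced and 12.2 to 20.4 CPM after transduction, again without overlap, with a log2 difference of -0.68 ± 0.11 (1.61-fold, adjusted p 0.00112). Summing RHD and RHCE gave -0.84 ± 0.09 (adjusted p 0.000145). RHAG, whose product the Rh proteins need at the membrane, read 721, 649 and 691 CPM untransduced and at most 546 CPM in the lentiviral libraries. It differed by -0.48 ± 0.08 on the log2 scale (1.39-fold, adjusted p 0.0018), so that all 3 genes of the Rh complex were lower, RHCE by the most and RHAG by the least.

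XK was lower while its partner KEL was not called. XK read 138, 244 and 165 CPM in untransduced cells and 85.2 to 117 CPM in lentiviral ones, without overlap. Its log2 difference was -0.84 ± 0.12 (1.79-fold, edgeR adjusted p 0.000658). The untransduced libraries spread widely, and the first was nearest the lentiviral range. KEL read 65.3, 54.1 and 64.3 CPM untransduced, inside the lentiviral range of 47.5 to 67.5 CPM, with a log2 difference of -0.12 (adjusted p 0.509). VPS13A, which encodes the lipid transfer protein that binds XK, differed by -0.2 ± 0.17 (adjusted p 0.461).

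Among the glycophorins GYPC and GYPE were lower and GYPB was not called. GYPC read 179, 247 and 190 CPM untransduced and 116 to 167 CPM in the lentiviral libraries, which did not overlap. Its log2 difference was -0.53 ± 0.11 (1.45-fold, edgeR adjusted p 0.00585). GYPE read 93.4, 148 and 119 CPM untransduced and 63.7 to 98.2 CPM in lentiviral libraries, so that 1 untransduced library fell inside the lentiviral range. It differed by -0.58 ± 0.11 (1.5-fold, adjusted p 0.00317). Without the second untransduced library, the highest for both genes, the calls of GYPE (-0.41, adjusted p 0.0719) and GYPC (-0.38, adjusted p 0.107) were lost. GYPB read 18.9, 23.6 and 20.5 CPM untransduced and 13.1 to 32.7 in lentiviral cells, with a difference of -0.2 (adjusted p 0.397).

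ERMAP read 108, 106 and 123 CPM untransduced and 52.5 to 124 CPM in lentiviral cells. The groups overlapped, and the log2 difference of -0.35 was not called (edgeR adjusted p 0.323). It moved to -0.14 (edgeR adjusted p 0.33) when the lentiviral libraries numbered 3 were left out. With the library number as a block in the fit it moved to -0.46 (edgeR adjusted p 0.0285). That block also covers the untransduced libraries, which were not read as paired by number, so the call has this limit. In 5 of the 9 members every lentiviral library was below every untransduced one, a pattern of 4.24% of all genes tested. These 5 are among the 6 called from the same libraries, so the separation is not further evidence.

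The guideless dCas9-KRAB group alone, which has a lentivirus but no gRNA, was lower than untransduced cells for 6 of 9 members, where 6.63% of all genes were called and 3.76% were lower. These values share the untransduced libraries with those above, and the guideless libraries are 3 of the 15. The log2 difference was -1.28 ± 0.16 for RHCE (2.43-fold, edgeR adjusted p 0.00152), -0.99 ± 0.15 for RHD (1.98-fold, 0.00495) and -0.98 ± 0.16 for XK (1.97-fold, 0.00892). It was -0.64 ± 0.15 for GYPE (1.56-fold, 0.0261), -0.61 ± 0.16 for GYPC (1.53-fold, 0.0309) and -0.52 ± 0.11 for RHAG (1.43-fold, 0.0185). In the same 6 of 9 members the groups did not overlap, a pattern of 13.4% of all genes tested. Calls and separation rest on the same libraries, so the separation is not further evidence. KEL (-0.12, adjusted p 0.657), GYPB (-0.23, 0.518) and ERMAP (-0.37, 0.487) were not called. A fit on these 6 libraries alone called 0 of 9 members, with adjusted p of 0.12 to 0.14 for the 6 genes at nearly the same fold changes, and leaving out 1 library left 2 to 6 members called.

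Erythroid genes and markers of other lineages also differed. In the mean of the lentiviral groups against untransduced cells, 5 of 10 erythroid identity genes were lower and none higher. Over all genes tested 11.2% were lower. HBE1, HBG1 and HBG2 were among them, and the dCas9-KRAB gRNA groups that lowered these globins are part of this mean. The others were ALAS2, the first enzyme of erythroid haem synthesis (-0.93 ± 0.11, edgeR adjusted p 0.000147), and GATA1 (-0.39 ± 0.08, 0.00545). In the guideless group against untransduced cells 2 of 10 were lower and none higher, beside 3.76% of all genes lower. The median log2 difference of the 10 was 0.12 there. Of 8 tested megakaryocyte markers 2 were lower, ITGA2B (-1.59 ± 0.43) and ITGB3 (-0.88 ± 0.18). The summed megakaryocyte level was 54.2 to 80.5 CPM in lentiviral and 67.3 to 95.5 in untransduced libraries. The summed myeloid level was 11.8 to 29.9 against 27.3 to 39.9 CPM, with LYZ the 1 of 4 tested markers called lower (-0.89 ± 0.27), and the lymphoid level 4.93 to 9.68 against 8.43 to 12.5 CPM, with 0 of 3 called. GP9, S100A9 and MS4A1, 1 gene of each list, were at 0 in both kinds of library. The part of these shifts in the members' differences was not tested.

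Other genes of the blood group systems gave a mixed picture in the same comparison. Of 28 other genes that encode carriers of blood group antigens, 24 could be tested. Of these, 7 were lower in the lentiviral groups and 0 higher, with a median log2 difference of -0.25, beside 11.2% of all genes lower. ABCG2, the transporter that carries the Junior antigen, had the largest difference (-1.39 ± 0.29, edgeR adjusted p 0.00455), followed by SEMA7A, the carrier of John Milton Hagen (-0.94 ± 0.16, 0.00179), and CD55, the complement regulator that carries Cromer (-0.82 ± 0.2, 0.0101). ABCC4, an organic anion exporter, came next (-0.58 ± 0.11, 0.00297). The ABCG2 value rests on few reads, 8 to 76 counts a library, at a mean of 0.799 CPM. Of 10 enzymes that build carbohydrate or GPI-linked antigens, 7 could be tested. ABO, the glycosyltransferase of the A and B antigens, was the 1 that was higher (0.65 ± 0.11, 1.57-fold, 0.00158), and 0 were lower. The enzymes' median was -0.16.

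**Figure D3:**
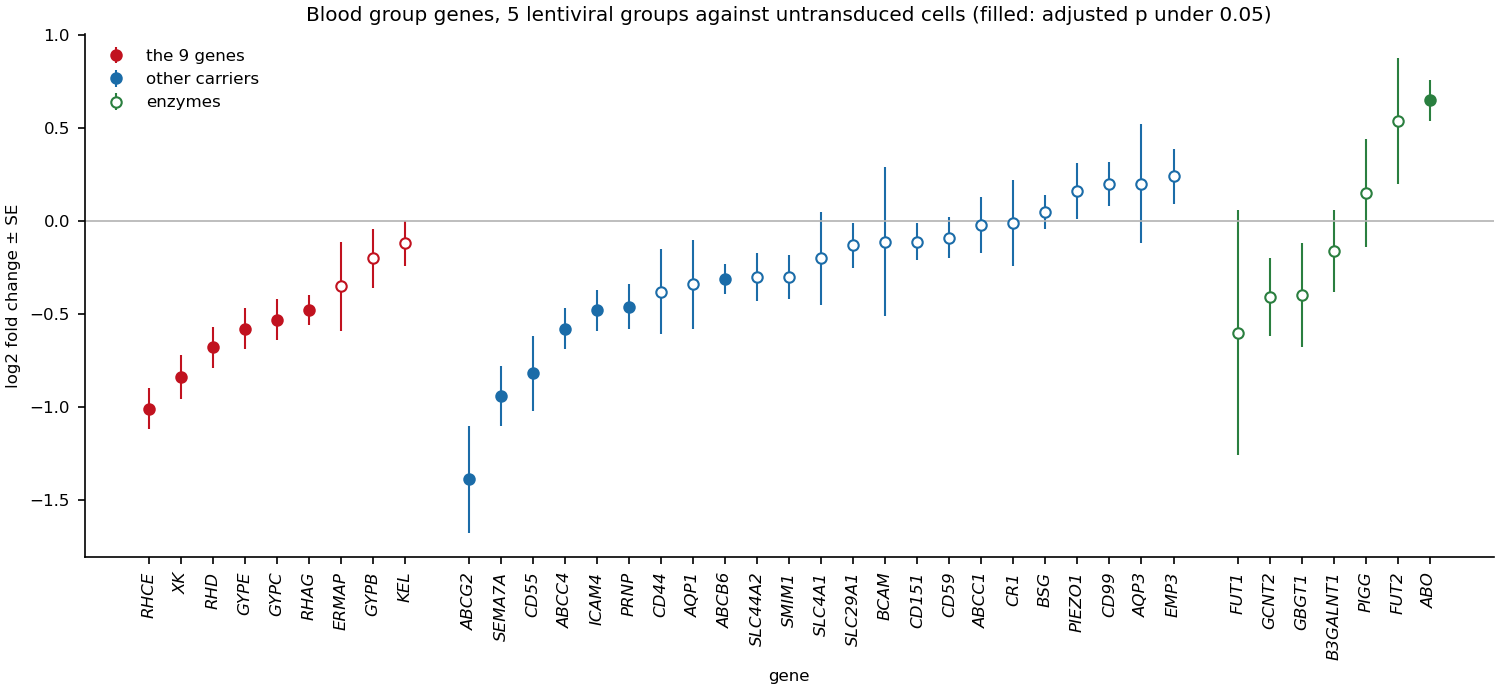
Log2 fold change of the mean of 5 lentiviral groups against untransduced cells (vertical axis, ± SE) for the 9 genes in red, other carriers in blue and the 7 tested enzymes in green, filled where the adjusted p was under 0.05. Of the 9 genes 6, and 7 of the other carriers are filled below 0, and ABO is the 1 filled gene above 0.

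Membrane partners and erythroid regulators that were called were all lower. Among 11 genes for proteins that hold the antigen carriers in the membrane, 4 were lower and 0 higher (median -0.21). They were MPP1, the skeleton protein that binds glycophorin C (-0.57 ± 0.13, edgeR adjusted p 0.00665), EPB42, which links band 3 to ankyrin (-0.49 ± 0.13, 0.0187), ICAM4, the carrier of the Landsteiner-Wiener antigens (-0.48 ± 0.11, 0.0072), and CD47 of the Rh complex (-0.29 ± 0.09, 0.0351). Of 13 tested erythroid transcription factors 3 were lower, GFI1B (-0.49 ± 0.14), GATA1 and NFE2 (-0.29 ± 0.09), and 0 higher (median -0.07). Over all genes tested 11.2% were lower. The lists overlap: ICAM4 is also on that of the other carriers and GATA1 on that of the erythroid identity genes. KLF1, the factor that binds CACCC sites, differed by 0.21 ± 0.16 (adjusted p 0.369). In the guideless group against untransduced cells the counts lower were 5 of 24 carriers, 3 of 11 partners and 1 of 13 regulators. The share lower over all genes tested was 3.76% there. With KRAB against dCas9 averaged over both gRNAs, 0 genes of the carrier, enzyme, partner and regulator lists were called. Of the 10 erythroid identity genes 3 were lower there, HBE1, HBG1 and HBG2, beside 0.0272% of all genes called.

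The libraries also carry a structure of another kind that touched the members. Lentiviral libraries with the same number in their titles moved together: in 30 of 30 same-number pairs the deviations from group means correlated above 0.1 (0.17 to 0.87), against 17 of 60 pairs with different numbers. The labels do not say what a number stands for. A test over the 3 numbers in the 15 lentiviral libraries called 4 of 9 members, where 54.3% of all 14605 genes tested were called, so that a share of 4 in 9 is no more than that of other genes.

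ERMAP showed it most clearly. It read 94.7, 124, 112, 110 and 96.1 CPM in the lentiviral libraries numbered 1, and 108, 102, 93.5, 101 and 98.7 in those numbered 2. In the libraries numbered 3 it read 58.5, 61.4, 61.7, 53 and 52.5 CPM. All 5 libraries numbered 3 were thus below the other 10, a pattern shown by 11.6% of all genes and by ERMAP alone of the 9. The log2 difference of number 3 from the mean of 1 and 2 was -0.84 ± 0.07 (edgeR F test over 3 numbers, adjusted p 4.7e-08), and number 2 differed from number 1 by -0.07 ± 0.08. The untransduced library numbered 3 read 123 CPM, the highest of its group. Among the other carriers SLC4A1, which encodes band 3, had a difference of -0.84 ± 0.07 (adjusted p 8.46e-08) and AQP3, a water and glycerol channel, -0.85 ± 0.08 (2.74e-07).

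GYPC, RHCE and KEL moved by smaller amounts than ERMAP. GYPC averaged 126 ± 12 CPM (SD, n = 5) in libraries numbered 1, 147 ± 8.2 in those numbered 2 and 153 ± 9.36 in those numbered 3. Its log2 difference was 0.19 ± 0.06 for number 3 and 0.24 ± 0.07 for number 2 against 1 (edgeR, adjusted p 0.00262). RHCE averaged 11.9 ± 0.869, 14.5 ± 2.84 and 13.9 ± 1.12 CPM (adjusted p 0.0333) and KEL 57.6 ± 6.16, 61 ± 5.06 and 50.8 ± 3.2 CPM (adjusted p 0.0462). Both calls were near the threshold and were lost when single libraries were left out. GYPB (0.0506), RHAG (0.074), RHD (0.0859), XK (0.515) and GYPE (0.856) were not called.

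Beside the 54.3% of all genes called over the library numbers, the lists around the members gave these counts. Of the other carriers 5 of 24 were higher and 6 lower in number 3, of the partners 2 of 11 higher and 6 lower, of the regulators 1 of 13 higher and 8 lower, and of the erythroid identity genes 1 of 10 higher and 7 lower. Of the 7 tested enzymes 3 were higher, FUT1 of the H antigen by 2.23 ± 0.14 (edgeR adjusted p 2.59e-09), and 2 lower, PIGG of the Emm antigen by -0.87 ± 0.07 (5.2e-08). The summed myeloid level was 22.8 to 29.9 CPM in number 3 and 11.8 to 17.3 in numbers 1 and 2. All 3 tested myeloid markers and both tested lymphoid markers were higher, and the part of these shifts in the members' values was not tested.

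**Figure D4:**
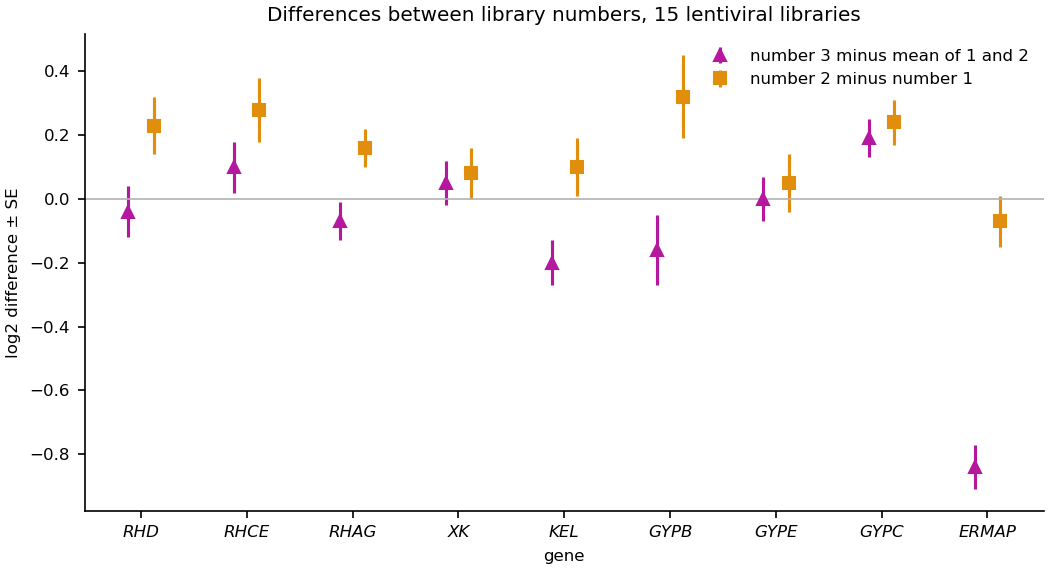
Log2 difference (vertical axis, ± SE) of each of the 9 genes between lentiviral libraries numbered 3 and the mean of numbers 1 and 2 (triangles), and between numbers 2 and 1 (squares), in 15 libraries. ERMAP stands at -0.84 for number 3, and the other 8 genes lie between -0.2 and 0.19.

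The split between the near-identical copies RHD and RHCE was followed as a share of the summed counts. RHCE held 39% to 48.1% of the RHD and RHCE counts in the lentiviral libraries (median 45.5%) and 44.2%, 55.9% and 50.1% in the untransduced ones. The ranges overlapped, with 2 of 3 untransduced libraries above all lentiviral ones.

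**Figure D5:**
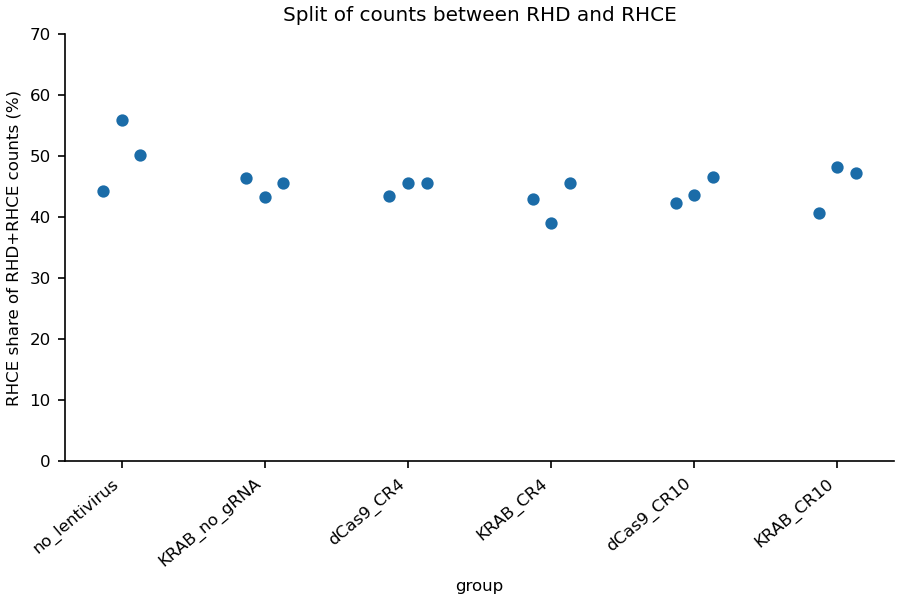
Share (vertical axis, percent, from 0) of the RHD and RHCE counts assigned to RHCE, with 1 point per library in the 6 groups (horizontal axis). RHCE lies between 39% and 48.1% in the lentiviral libraries and at 44.2%, 55.9% and 50.1% in the untransduced ones.

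At the level of transcripts, 5 members had more than 1 entry. NM_016124 took 58.9% of the RHD counts and NM_001127691 the other 41.1%. The RHCE counts fell on 4 transcripts, from 41.1% for NM_020485 to 12.6% for NM_138616. NM_198682 took 95.6% of the GYPE counts, and the 2 ERMAP transcripts NM_018538 and NM_001017922 had 50.6% and 49.4%. GYPC fell on 3 transcripts, with 40% on NM_002101. The split varied between libraries with a chi-square per degree of freedom, on halved counts, of 1.02 for ERMAP, 1.22 for RHD, 1.25 for RHCE, 1.49 for GYPC and 3.47 for GYPE. The GYPE split thus moved by more than counting error. The ERMAP transcripts are nearly alike in length and share, and how reads that fit both were assigned is not given, so their steady split does not show which of them changed.

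The library preparation does not mark the strand, so reads of overlapping genes can add to a member. RSRP1 overlaps RHD, TMEM50A overlaps RHCE and SVBP overlaps ERMAP in the RefSeq annotation of GRCh38. In the lentiviral groups against untransduced cells RSRP1 was higher (log2 difference 0.64, edgeR adjusted p 0.0293), opposite to RHD. TMEM50A was lower (-0.3, 0.0488), by less than RHCE on the log2 scale, and SVBP was not called (0.08, 0.764). Mean levels over the 18 libraries were 147 CPM for TMEM50A and 15.7 for RHCE. They were 13.2 CPM for RSRP1 and 18.5 for RHD, and 14 for SVBP and 92.5 for ERMAP. A log2 difference does not measure how many reads could be added, and the part of such reads in the members' values was not tested. Over the library numbers SVBP had a difference of -0.21 for number 3 (0.0173), beside -0.84 for ERMAP.

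The genes with the most similar profiles were sought by Pearson's r of log2(CPM + 1) over the 18 libraries among 10393 genes with a mean of at least 5 CPM. The libraries share groups and numbers, so r describes these libraries only. Among the 3 closest to RHD were RAP1B (0.87) and EPB42 (0.86). RHCE was closest to TPM1 (0.94), MAGEC2 (0.93) and SCG3 (0.91). RHAG was closest to TMBIM1 (0.94), RPN1 (0.93) and AURKA (0.93), XK to PIP5K1B (0.98), SIAE (0.97) and GLE1 (0.96), and KEL to EIF2B4 (0.9), CDK4 (0.89) and STRAP (0.88). Of the glycophorins, GYPB was closest to H3-5 (0.83), NMI (0.78) and ERP44 (0.77), and GYPC to IMMP2L (0.95), TMEM106C (0.94) and CNIH4 (0.94). GYPE was closest to the transcript NR_047547, CBLB and TM7SF3 (0.92 each). Among the 3 closest to ERMAP were INTS7 (0.97) and SEC61A1 (0.96). No gene appeared among the closest 3 of more than 1 member.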

How the data were processed

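The deposited tables, 1 for each of 18 libraries, hold unnormalized counts against RefSeq transcript accessions. The build hg19 and the tools Bowtie2, Picard, SAMtools, DESeq and R 3.1.2 are listed, per the submitters' processing notes; what each did, the counting tool and the treatment of reads that fit several places are not given in the sources used here. Of 40709 accessions, 39324 matched the RefSeq gene table and 517 GENCODE, covering 99.02% of counts, and transcripts were summed to 24407 genes. Reference coordinates (GRCh38.p14) are given for the printed RefSeq sequences only.

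Counts as deposited were fitted with edgeR 4.0.16 in R 4.3.3 (filterByExpr, TMM scaling, quasi-likelihood test, Benjamini-Hochberg adjustment over all genes tested, threshold 0.05), on 18 libraries with 1 coefficient per group, or on 15 lentiviral libraries with group and number terms. The biological coefficient of variation was 21.6%. Alternatives were DESeq2 1.42.0, other scalings, no filter, halved counts, the compared groups only, a replicate block, RHD and RHCE summed and leaving out each library. The procedure was tested on simulated data. Intervals are at 95%.

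Same-numbered lentiviral libraries moved together over 12611 genes (30 of 30 pairs above 0.1, against 17 of 60 with other numbers), so numbers were read as pairing these libraries; with untransduced libraries 5 of 15 pairs did, so they were not read as pairing those. All 9 members are described in every comparison; of other lists, called genes (up to 4 by size of difference) are named, and other genes beside a result were named after their values were seen. Members and lists were chosen with earlier results of these data known. Some genes of the lists and of the closest profiles are counted but not reported here.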

Additional observations from a re-analysis of the deposited data

How the results depend on the processing

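In the 9 comparisons between lentiviral groups, 0 of 9 members were called under every alternative run, with the replicate block (0) and without it, and with each library left out (0 to 0), and all 1359 recomputed values kept their side of the threshold. For the guideless group against untransduced cells, the 6 members called became 0 with the compared groups only. There 0 of 14104 genes were called, against 976 of 14720. Leaving the other groups out of the fit changes the estimated spread, the genes tested and the scaling, so no call of that comparison was made without them. Leaving out 1 library gave 2 to 6 members there (2 without guideless library 1, RHD and RHCE; 3 without guideless library 3 or untransduced library 2 or 3) and 27 to 2444 genes in all. Other counts over all genes were 1958 with DESeq2, 1616 without the lentiviral libraries numbered 3 and 2619 with the replicate block, under which 6 members were called. On library totals GYPC (adjusted p 0.0523) and without the libraries numbered 3 GYPE (0.0613) were lost. For all lentiviral groups against untransduced cells the 6 members became 4 to 6 with 1 library left out and 7 with the replicate block. The block added ERMAP (-0.46, edgeR adjusted p 0.0285). In both comparisons with untransduced cells it pairs the untransduced libraries by number, a pairing that was not read from the data. All genes called went from 2757 to 346 without untransduced library 2 and to 1346 without untransduced library 3. They were 4442 without the lentiviral libraries numbered 3 and 4195 with the block. RHD, RHCE, RHAG and XK were called in 27 of 27 settings and GYPC and GYPE in 26. The 27 include the main fit and that on the compared groups only, which is the same fit here because every group is compared. For the library number, 2 to 6 of 9 members were called with 1 library left out, 2 of them without dCas9 CR4 library 2 or 3, dCas9-KRAB CR4 library 3 or dCas9 CR10 library 2 or 3. ERMAP and GYPC were called in 22 of 22 settings, the main fit included, KEL in 13 and RHCE in 8. With RHD and RHCE summed the RHD difference of -0.04 turned to 0.02 (adjusted p 0.0305). Where a call was lost, the cause was not tested. Depth was not varied; GYPB, RHD and RHCE had the fewest counts, 260 to 970 a library, and ERMAP the largest standard error against untransduced cells (0.24).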
